A study of Mus musculus with 15 samples.

Results

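The genes described here are 39 members of the integrated stress response and the unfolded protein response of the endoplasmic reticulum (ER), taken by gene symbol from a deposited RNA-seq table. All 39 members were listed among its 14091 features, and all 39 passed the filter on low counts that left 13328 tested genes. They form 8 groups by role: 7 transcription factors, 4 stress effectors, 6 amino acid and one-carbon enzymes, 7 amino acid transporters, 5 tRNA synthetases, 1 lipoprotein receptor, 6 ER chaperones and folding enzymes, and 3 genes of ER-associated degradation. The cells were mouse embryonic fibroblasts, connective tissue cells grown from embryos, of the ICR strain. The first group of 5 libraries, MΔGΔT, came from fibroblasts given retrovirus for altered forms of the cardiac factors Mef2c (M) and Gata4 (G) together with Tbx5 (T), and the second group of 5, MGT, from fibroblasts given retrovirus for Mef2c, Gata4 and Tbx5. The third group, MEF, held 5 control libraries of the same fibroblasts. The transduced cells were collected 1 week after virus was given, and no such time is listed for the MEF group. The labels write the altered forms with a Δ and do not spell out what was altered, and they name no control virus for the MEF group, so effects of transduction and effects of the factors cannot be told apart against MEF. They also do not say that the 5 libraries of a group came from separate cultures, so each p measures the spread between libraries, which may be technical.

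The integrated stress response begins when a kinase phosphorylates the translation factor eIF2α, which lowers protein synthesis in general while the mRNA of Atf4 is translated more. ATF4, often with a C/EBP protein as partner, then drives genes for amino acid import, serine and asparagine synthesis, tRNA charging and, under lasting stress, the pro-apoptotic factor CHOP (Ddit3). The unfolded protein response has 2 further branches from the ER: IRE1, which splices Xbp1 mRNA, and ATF6, which is cut and moves to the nucleus; both drive ER chaperones and degradation of misfolded proteins. RNA levels such as those given here do not read the phosphorylation of eIF2α, the splicing of Xbp1 or the cutting of ATF6.

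Promoter windows of 250 bases before to 50 after the start site, from RefSeq (GRCm38.p6), were matched by symbol for 34 of the 39 members, in 38 windows. Atf6, Slc7a5, Slc1a5, Nars and Wars had no entry. Both strands were searched for TGATGNAA, the core of the C/EBP-ATF response element, for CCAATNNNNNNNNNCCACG, the ER stress response element, and for the ER stress response element II. The C/EBP-ATF core stood in 10 of 38 member windows (26.3%), among them those of Nupr1, Trib3, Chac1, Asns, Slc7a11, Slc1a4, Gars, Vldlr and Herpud1, and in 1304 of all 32851 windows (3.97%). The ER stress response element stood in 4 of 38 member windows (10.5%), those of Creld2, Pdia6, Calr and Canx, and in 39 of all windows (0.119%). Element II stood in the window of Herpud1 and in 12 of all windows (0.0365%). A match is a description of the letters in a window, and no 2 of these matches overlapped.

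The stretches that follow are shown because they hold a matched motif beside a start site of members whose values are given below. Nupr1, Slc7a11, Vldlr and Chac1 were taken as those of the largest change, Trib3 being left out because its match lies after the start site, and Asns, Herpud1, Calr and Canx were added after their values were seen. Each is written 5′ to 3′ on the strand of its gene, with capitals for the motif in either orientation. The stretches of Nupr1, Vldlr and Asns lie before the RefSeq start site but within an exon of another transcript in the GENCODE M21 annotation, and are cut to 30 bases.
Nupr1, chr7:126625562-126625591, minus strand: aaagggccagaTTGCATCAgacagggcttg
Slc7a11, chr3:50443623-50443709, minus strand: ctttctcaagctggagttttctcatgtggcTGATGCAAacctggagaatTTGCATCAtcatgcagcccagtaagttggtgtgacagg
Vldlr, chr19:27216809-27216838, plus strand: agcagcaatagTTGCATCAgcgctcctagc
Chac1, chr2:119351019-119351086, plus strand: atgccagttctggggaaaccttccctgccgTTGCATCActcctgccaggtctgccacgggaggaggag
Asns, chr6:7693214-7693243, minus strand: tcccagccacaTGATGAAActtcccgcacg
Herpud1, chr8:94386287-94386417, plus strand: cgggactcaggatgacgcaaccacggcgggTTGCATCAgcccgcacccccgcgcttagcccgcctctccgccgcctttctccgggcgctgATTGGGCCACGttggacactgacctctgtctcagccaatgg
Calr, chr8:84847045-84847123, minus strand: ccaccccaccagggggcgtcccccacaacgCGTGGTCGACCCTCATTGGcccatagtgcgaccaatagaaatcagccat
Canx, chr11:50325770-50325848, minus strand: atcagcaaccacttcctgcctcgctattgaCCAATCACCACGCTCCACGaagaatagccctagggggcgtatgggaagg

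The libraries held 9.57 to 10.6 mega-counts in MΔGΔT, 9.29 to 11.1 in MGT and 8.21 to 10.4 in MEF. Among the members the lowest count in any library was 90, for Slc7a11 in MΔGΔT replicate 4, and the highest was 11502, for Canx in MGT replicate 4. The delivered factors were found in the libraries labelled with them: Mef2c averaged 629 ± 23.7 CPM in MΔGΔT, 578 ± 40.1 in MGT and 59.6 ± 1.10 in MEF (SD, n = 5 each), where CPM is counts per mega-count of the library size after adjustment for composition by TMM. Gata4 averaged 192 ± 3.11 CPM in MΔGΔT, 151 ± 12.6 in MGT and 2.47 ± 0.536 in MEF. Tbx5 averaged 175 ± 4.48 CPM in MΔGΔT, 123 ± 7.87 in MGT and 4.37 ± 0.615 in MEF, and delivered and endogenous transcripts are counted together. With TMM scaling, Mef2c, Gata4 and Tbx5 were higher in MΔGΔT than in MGT by 0.12, 0.34 and 0.51 on the log2 scale (edgeR adjusted p = 0.00526, 1.7e-08 and 1.4e-13). Altered forms and factor levels therefore cannot be told apart between these groups. Markers of other cells also moved with the groups. The 6 cardiac marker genes summed to 9240.4 to 10658 CPM per library in MΔGΔT, 899 to 1078 in MGT and 4.51 to 5.46 in MEF. The 10 fibroblast markers summed to 34158 to 36685 CPM in MΔGΔT, 40171 to 41204 in MGT and 63405 to 71277 in MEF. Of these, 8 were lower in MΔGΔT and 9 in MGT, whereas Vim was higher in both, by 1.69 on the log2 scale in MΔGΔT and 0.88 in MGT, and Thy1 was higher in MΔGΔT by 0.59. The 9 listed macrophage markers summed to 189.9 to 282 CPM in MΔGΔT, 145 to 265 in MGT and 1812 to 2443 in MEF, and all 9 were lower in both transduced groups. No marker of these lists was at 0 across a whole group. Their part in the member values below was not tested, and in bulk RNA fewer cells of a type and less RNA per cell cannot be told apart. MEF replicate 1 stood farthest from the other libraries of its group, with a chi-square per degree of freedom of 4.67 to 7.43 against them, where every other pair within a group had 1.61 to 4.04.

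Against MEF, most members were lower in MGT, while MΔGΔT was more evenly divided. In MΔGΔT, 13 members were higher, 19 were lower and 7 did not pass the test (edgeR quasi-likelihood F-test, Benjamini-Hochberg adjusted p under 0.05), where 36.2% of all tested genes were higher and 36.1% lower. In MGT, 5 members were higher, 27 were lower and 7 did not pass, where 30.9% of all tested genes were higher and 30.3% lower. The median log2 fold change of the members was -0.10 in MΔGΔT, beside -0.01 for all tested genes, and -0.28 in MGT, beside 0.00 for all tested genes. Both comparisons use the same 5 MEF libraries. Without MGT replicate 5, 3 members in place of 5 were higher in MGT, since Pdia6 and Canx no longer passed. Most changes were modest: 3 members rose and 2 fell by at least 2-fold in MΔGΔT, and 1 rose and 2 fell by as much in MGT. Of all tested genes, 10.7% were called higher and 12.2% lower by at least 2-fold in MΔGΔT, and 6.87% and 9.39% in MGT. The median absolute log2 fold change of the members was 0.37 in each transduced group against MEF, beside 0.38 for all tested genes in MΔGΔT and 0.26 in MGT.

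Between the transduced groups, 24 members were higher in MΔGΔT than in MGT, 4 were lower and 11 did not pass the test, where 30.4% of all tested genes were higher, 27.8% lower and 58.2% either. The members' median log2 fold change was 0.15, beside 0.01 for all tested genes. This split depends on how the libraries are scaled: it was 24 higher and 5 lower with DESeq2 size factors, 19 and 7 with upper-quartile factors, 14 and 12 with plain library totals, and 9 and 17 with the totals implied by the authors' RPKM values (reads per kilobase of gene and mega-read). Over all tested genes the split moved the same way. It was 4056 higher and 3706 lower with TMM, 3986 and 3774 with DESeq2 size factors, and 3402 and 4474 with upper-quartile factors. Plain totals gave 2436 higher and 6200 lower, and RPKM-implied totals 1871 and 7289. Relative to TMM, plain totals moved the median of all tested genes by -0.17 in this comparison and RPKM-implied totals by -0.26. Against MEF, RPKM-implied totals moved the median in MΔGΔT by -0.24, which gave 6 members higher and 28 lower in place of 13 and 19. Over all tested genes they gave 2926 higher and 7184 lower in place of 4819 and 4818. Plain totals moved the median in MΔGΔT against MEF by -0.10.

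**Figure D1:**
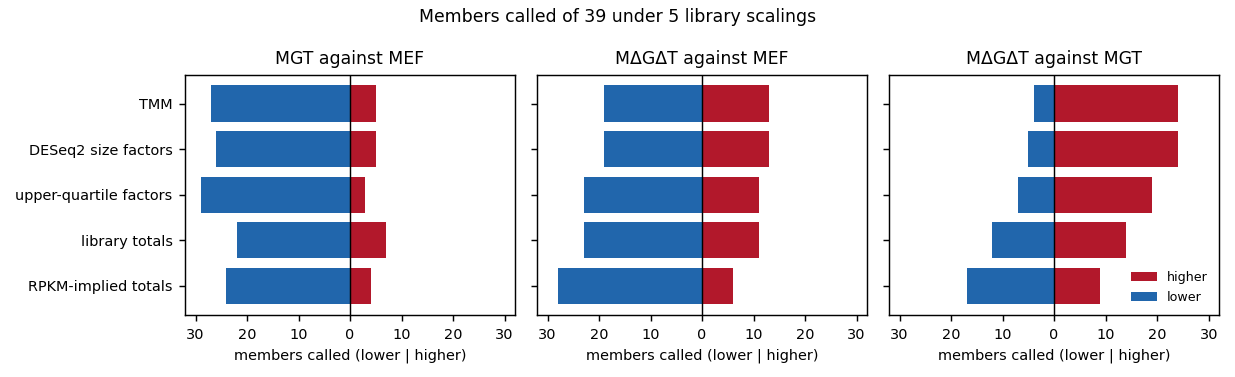
Number of the 39 members called lower (blue, left of 0) and higher (red, right of 0) at an edgeR adjusted p under 0.05 in each of 3 comparisons, under 5 ways of scaling the libraries. In MGT against MEF the lower calls outnumber the higher under every scaling, whereas in MΔGΔT against MGT the split runs between 24 higher with 4 lower and 9 higher with 17 lower. Over all tested genes, not drawn, that last split runs between 4056 higher with 3706 lower and 1871 higher with 7289 lower.

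Under all 5 scalings, 9 members were called higher in MΔGΔT than in MGT (Nupr1, Atf6, Psat1, Psph, Mthfd2, Slc7a1, Vldlr, Sdf2l1 and Edem1) and 4 lower (Sesn2, Shmt2, Slc7a11 and Slc1a5). Of these, the Sesn2 call was lost when single libraries were left out (adjusted p of up to 0.18 without MΔGΔT replicate 4). Against MEF, 6 were higher in MΔGΔT under all 5 (Nupr1, Atf6, Psat1, Slc7a1, Slc38a2 and Vldlr) and 19 lower, and in MGT 3 were higher (Nupr1, Slc38a2 and Vldlr) and 22 lower. The share of all tested genes called under all 5 scalings was not determined. These counts therefore do not show whether the members differ from other genes. By role, and with TMM scaling, MΔGΔT exceeded MGT for 6 of 7 transcription factors, 4 of 6 enzymes, 5 of 7 transporters, 2 of 5 tRNA synthetases, 2 of 6 ER chaperones, all 3 genes of ER-associated degradation, 1 of 4 effectors and Vldlr. It was lower for 1 enzyme, 2 transporters and 1 effector. Of all tested genes, 30.4% were higher and 27.8% lower. Of these factors only Nupr1 and Atf6, and of these transporters only Slc7a1, were called higher under all 5 scalings.

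**Figure D2:**
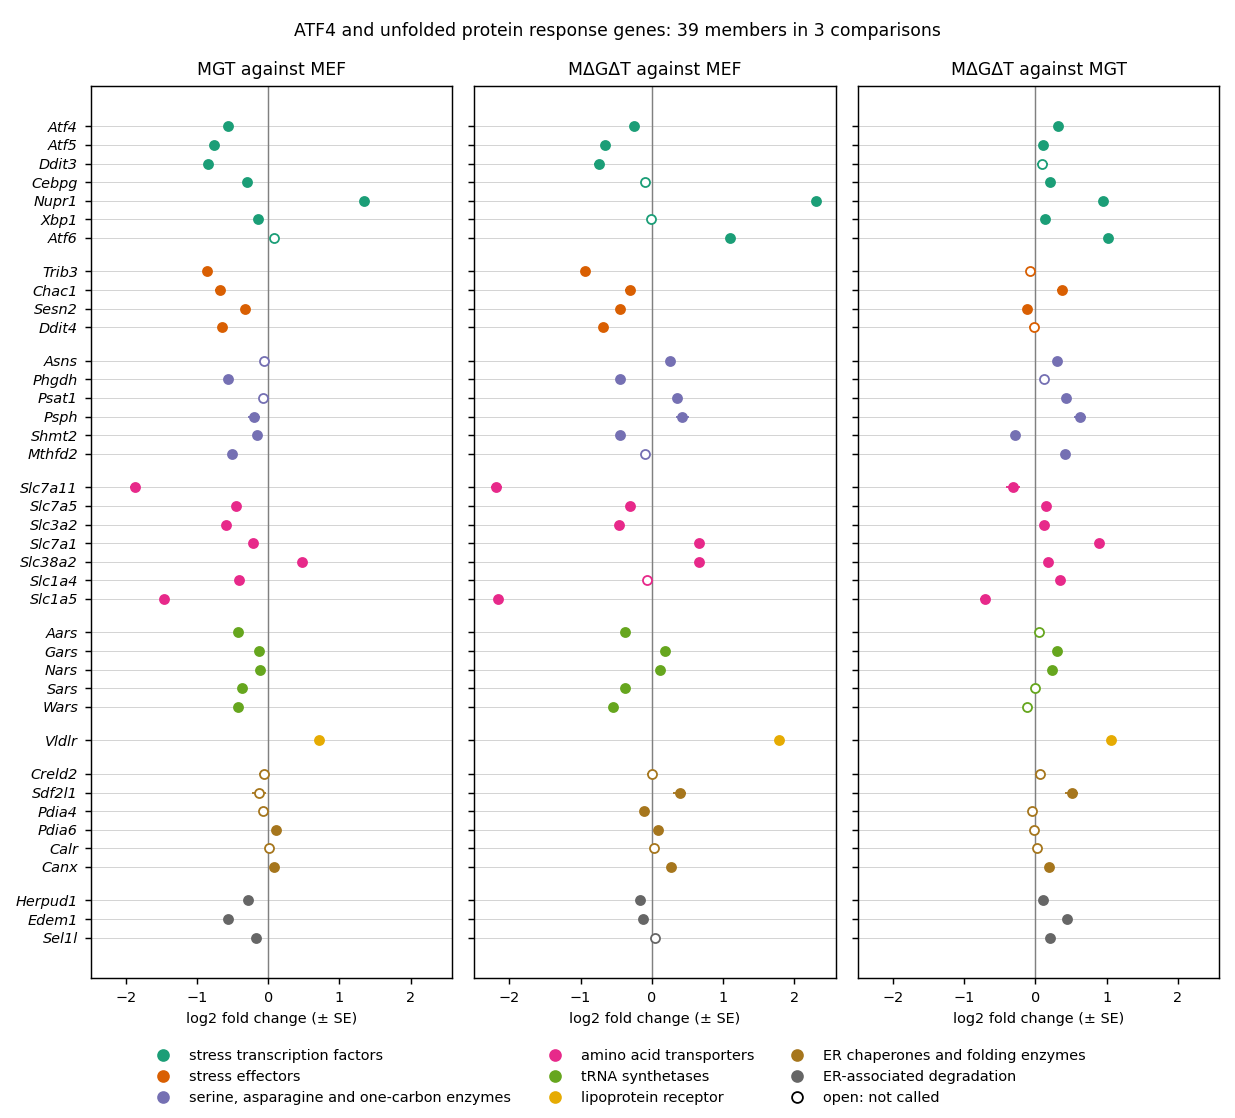
Log2 fold change (x axis) with its SE for each of the 39 members (y axis, ordered by role) in 3 comparisons, from edgeR with TMM scaling. In the panels against MEF, Slc7a11 and Slc1a5 lie farthest left and Nupr1 farthest right; in MΔGΔT against MGT all members lie between -0.71 and 1.06.

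By their pattern against MEF, 18 members were lower in both transduced groups: Atf4, Atf5, Ddit3, Trib3, Chac1, Sesn2, Ddit4, Phgdh, Shmt2, Slc7a11, Slc7a5, Slc3a2, Slc1a5, Aars, Sars, Wars, Herpud1 and Edem1. Another 5 were higher in both: Nupr1, Slc38a2, Vldlr, Pdia6 and Canx. Psph, Slc7a1, Gars and Nars were higher in MΔGΔT and lower in MGT. Atf6, Asns, Psat1 and Sdf2l1 were higher in MΔGΔT and not called in MGT, and Pdia4 was lower in MΔGΔT and not called in MGT. Cebpg, Xbp1, Mthfd2, Slc1a4 and Sel1l were lower in MGT and not called in MΔGΔT. Creld2 and Calr were called in neither. The share of all tested genes with each pattern was not determined, and both sides of a pattern rest on the same 5 MEF libraries. The counts therefore do not show whether the members differ from other genes. These patterns hold with TMM scaling. Under upper-quartile, plain and RPKM-implied scaling Cebpg, Xbp1, Mthfd2 and Slc1a4 were also called lower in MΔGΔT, as was Sel1l with RPKM-implied totals (-0.19, edgeR adjusted p = 0.000713). Other calls against MEF that a scaling or a left-out library added or ended are given with each gene. For MΔGΔT against MGT only a part is given there. Trib3, Sars, Pdia4 and Pdia6, not called with TMM, were called lower in MΔGΔT with plain totals (-0.25, -0.19, -0.21 and -0.19). With RPKM-implied totals they were called at -0.33, -0.27, -0.29 and -0.28. The TMM calls of Asns (0.31) and Slc1a4 (0.34) were lost with RPKM-implied totals (0.05 and 0.09).

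Of the 7 transcription factors, 2 rose, 3 fell and 2 did not pass the test in MΔGΔT against MEF, and 1 rose, 5 fell and 1 did not pass in MGT. Atf4 (ENSMUSG00000042406.8, chr15:80255184-80257541 on mm10), the central factor of the integrated stress response, had 199.6, 201, 202, 192 and 205 CPM in the MΔGΔT libraries, 162, 163, 163, 157 and 156 in the MGT libraries and 260.1, 223, 225, 239 and 243 in the MEF libraries. The 3 groups did not overlap, with MEF the highest and MGT the lowest. Its log2 fold change against MEF was -0.25 ± 0.0387 (edgeR adjusted p = 2.8e-07) in MΔGΔT and -0.57 ± 0.0389 (edgeR adjusted p = 3.7e-16) in MGT. Directly compared, Atf4 was higher in MΔGΔT than in MGT by 0.32 ± 0.0391 (edgeR adjusted p = 4.7e-09), and with RPKM-implied totals that difference was 0.06 and no longer called (edgeR adjusted p = 0.27).

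Ddit3, which encodes the pro-apoptotic factor CHOP, had 28.5, 32.4, 35.6, 30.2 and 29.6 CPM in the MΔGΔT libraries, 28.3, 25.5, 31.4, 29.3 and 31.8 in the MGT libraries and 45.8, 54.3, 50.2, 51.6 and 59.3 in the MEF libraries. Every transduced library lay below every MEF library, and the transduced groups overlapped. Ddit3 fell by 0.74 ± 0.0684 on the log2 scale in MΔGΔT and by 0.84 ± 0.0676 in MGT, and the difference between these groups of 0.10 ± 0.0723 (edgeR adjusted p = 0.24) did not pass the test, its sign turning under plain totals (-0.07) and RPKM-implied totals (-0.16). Atf5, a factor related to Atf4 that is itself translated more under eIF2α phosphorylation, fell by 0.65 ± 0.0362 in MΔGΔT and by 0.76 ± 0.0361 in MGT. Its exons share 82 bases (4.11%) with Nup62 and Il4i1 on the opposite strand, and those of Ddit3 share 68 bases (3.97%) with Mars on the opposite strand. The exons of Ddit3 also share 105 bases (6.13%) with a second protein-coding entry of the same name on the same strand. Cebpg, a C/EBP partner of ATF4, fell in MGT by 0.30 ± 0.0538, and its value in MΔGΔT of -0.10 ± 0.0538 (edgeR adjusted p = 0.092) did not pass the test, but was called at -0.19, -0.20 and -0.34 with upper-quartile, plain and RPKM-implied scaling and at -0.14 without MEF replicate 1 (edgeR adjusted p = 0.0144). Between the transduced groups Atf5 and Cebpg were called higher in MΔGΔT by 0.11 ± 0.0366 and 0.20 ± 0.0540, with signs that turned to -0.14 and -0.06 under RPKM-implied totals and, for Atf5, to -0.06 under plain totals. The Atf5 call was also lost with upper-quartile factors (0.05) and the Cebpg call with plain totals (0.03).

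Nupr1 (ENSMUSG00000030717.9, chr7:126623249-126630861), a small stress-induced chromatin protein that ATF4 is known to drive, ran the other way, with 158, 166, 158, 172 and 153 CPM in the MΔGΔT libraries, 75.4, 88.3, 90.7, 76.0 and 86.4 in the MGT libraries and 33.6, 33.2, 31.8, 31.0 and 33.6 in the MEF libraries. The 3 groups were wholly separate, MΔGΔT being the highest and MEF the lowest. The level was 4.93-fold that of MEF in MΔGΔT (log2 fold change 2.30 ± 0.0529, edgeR adjusted p = 5.9e-32) and 2.55-fold in MGT (log2 fold change 1.35 ± 0.0551, edgeR adjusted p = 3.0e-23), and MΔGΔT exceeded MGT 1.94-fold (log2 fold change 0.95 ± 0.0462, edgeR adjusted p = 1.6e-20).

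Atf6 (ENSMUSG00000026663.6, chr1:170704674-170867771), the ER membrane sensor that is cut into a transcription factor, had 247, 245, 247, 246 and 235 CPM in the MΔGΔT libraries, 115, 117, 124, 118 and 125 in the MGT libraries and 114, 109, 111, 120.2 and 114 in the MEF libraries. MΔGΔT stood apart from both other groups, and MGT and MEF overlapped. Atf6 rose 2.15-fold in MΔGΔT against MEF (log2 fold change 1.10 ± 0.0375, edgeR adjusted p = 3.6e-26) and 2.03-fold against MGT (log2 fold change 1.02 ± 0.0369, edgeR adjusted p = 1.0e-24), while MGT against MEF gave 0.08 ± 0.0384 (edgeR adjusted p = 0.077) and did not pass. That MGT value was called with plain totals (0.15, edgeR adjusted p = 0.00058), with the DESeq2 Wald test (adjusted p = 0.0489) and without MEF replicate 4 or MGT replicate 1 (0.0412 and 0.0494). Xbp1, the factor spliced by IRE1, had 115, 115, 122, 116 and 116 CPM in the MΔGΔT libraries, 107, 107, 101, 106 and 109 in the MGT libraries and 124, 113, 119, 117 and 113 in the MEF libraries. MGT lay below both other groups, which overlapped. The change was -0.01 ± 0.0388 (edgeR adjusted p = 0.91) in MΔGΔT against MEF, which did not pass, and -0.15 ± 0.0387 (edgeR adjusted p = 0.00126) in MGT, which did. With plain totals the MGT call was lost (-0.07, edgeR adjusted p = 0.12). The MΔGΔT value was called at -0.09, -0.10 and -0.24 with upper-quartile, plain and RPKM-implied scaling, and was 0.02 without MEF replicate 1. Between the transduced groups Xbp1 differed by 0.14 ± 0.0386 (edgeR adjusted p = 0.00198), a call lost with upper-quartile factors (0.08) and a sign that turned under plain totals (-0.03) and RPKM-implied totals (-0.12).

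**Figure D3:**
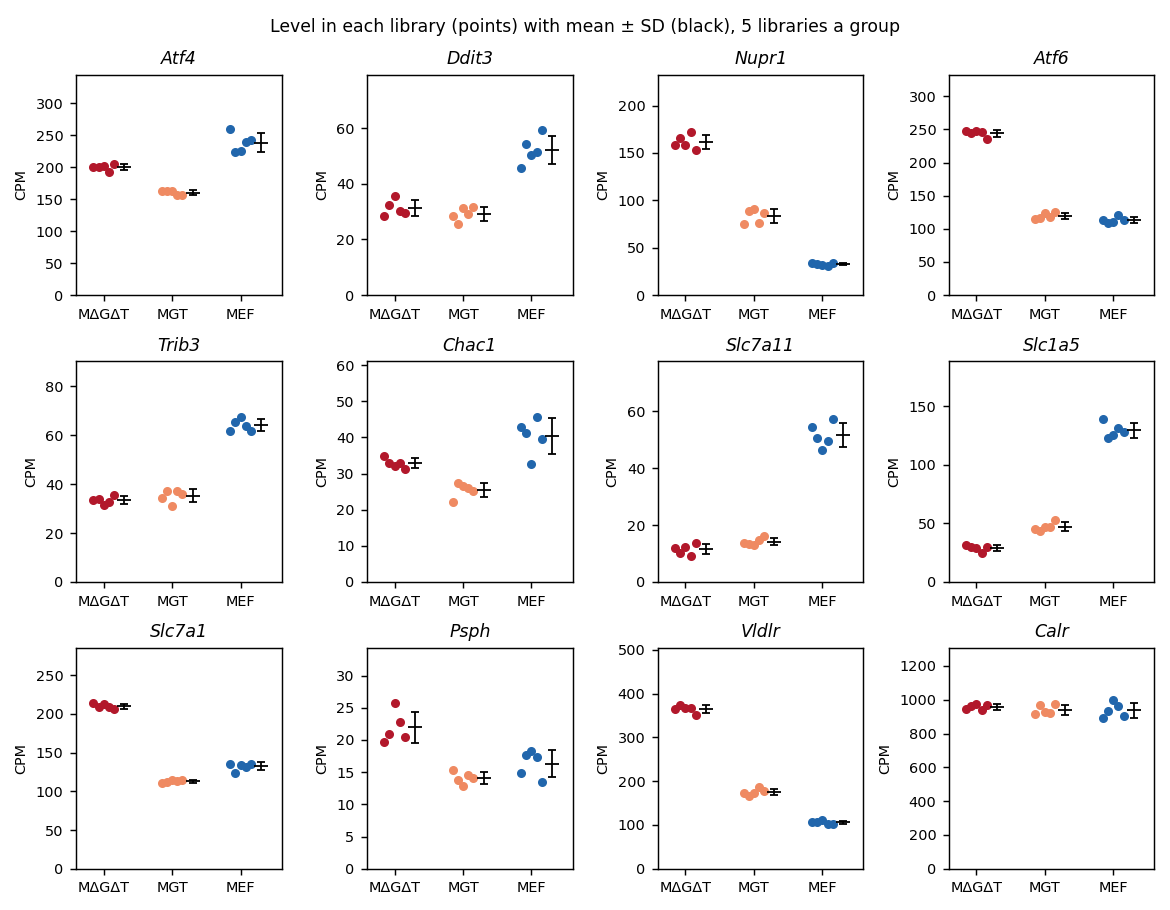
Level in CPM (y axis, from 0) of 12 members in each library, with points for the 5 libraries of MΔGΔT, MGT and MEF and black bars for mean ± SD. Nupr1, Atf6, Slc7a1 and Vldlr are highest in the MΔGΔT libraries, Slc7a11 and Slc1a5 are highest in the MEF libraries, and the Calr points of all groups overlap.

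All 4 stress effectors, Trib3, Chac1, Sesn2 and Ddit4, fell in both transduced groups against MEF, with medians of -0.56 in MΔGΔT and -0.66 in MGT on the log2 scale. Trib3, a pseudokinase that restrains ATF4 and CHOP, had 33.7, 33.9, 31.4, 32.7 and 35.5 CPM in the MΔGΔT libraries, 34.5, 37.4, 31.2, 37.2 and 36.1 in the MGT libraries and 61.8, 65.5, 67.6, 63.7 and 61.8 in the MEF libraries. The transduced libraries overlapped one another and lay below all MEF libraries. Trib3 fell by 0.94 ± 0.0548 in MΔGΔT and by 0.86 ± 0.0532 in MGT. Chac1, a glutathione-degrading enzyme downstream of ATF4 and CHOP, had 35, 33, 32, 32.9 and 31.4 CPM in the MΔGΔT libraries, 22.2, 27.3, 26.6, 26 and 25.3 in the MGT libraries and 42.8, 41.2, 32.7, 45.8 and 39.5 in the MEF libraries. MGT lay below every library of the other groups, and MΔGΔT overlapped MEF only through MEF replicate 3. The fall was -0.30 ± 0.0686 in MΔGΔT and -0.67 ± 0.0697 in MGT on the log2 scale, and MΔGΔT was higher than MGT by 0.37 ± 0.0715 (edgeR adjusted p = 3.0e-05), a call lost with RPKM-implied totals at an edgeR adjusted p of 0.21.

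Ddit4, an inhibitor of the growth kinase mTORC1, had 27.7, 29.1, 26.7, 25.4 and 27.2 CPM in the MΔGΔT libraries, 27.7, 27.7, 27.0, 27.7 and 28.1 in the MGT libraries and 36.8, 46.9, 45.7, 44.3 and 43.6 in the MEF libraries. Both transduced groups lay below MEF and overlapped each other. Its log2 fold change was -0.68 ± 0.0623 in MΔGΔT and -0.65 ± 0.0608 in MGT, and -0.02 ± 0.0649 (edgeR adjusted p = 0.78) between them, which was called at -0.20 with plain and -0.28 with RPKM-implied totals. Sesn2, a stress-induced protein that also restrains mTORC1, fell by 0.45 ± 0.0514 in MΔGΔT and by 0.33 ± 0.0503 in MGT. Its difference between the transduced groups, -0.12 ± 0.0516 (edgeR adjusted p = 0.039), was no longer called without MGT replicate 2, 4 or 5 or MΔGΔT replicate 1, 2 or 4 (adjusted p of 0.0571 to 0.18).

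Among the 6 enzymes of amino acid and one-carbon metabolism, 3 rose, 2 fell and 1 did not pass the test in MΔGΔT against MEF, and none rose, 4 fell and 2 did not pass in MGT. The genes of serine synthesis, whose chain runs from Phgdh through Psat1 to Psph, did not move together. Phgdh, the first enzyme, had 72.3, 75.2, 87.7, 75.9 and 83.5 CPM in the MΔGΔT libraries, 69.5, 74.2, 69.2, 74.0 and 77.4 in the MGT libraries and 98.0, 114, 116, 110.0 and 102 in the MEF libraries. Every transduced library lay below every MEF library, with overlap between the transduced groups. Phgdh fell by 0.45 ± 0.0513 in MΔGΔT and by 0.57 ± 0.0510 in MGT; 12 processed pseudogenes match its transcripts at 95% identity or more over at least 200 bases, so its counts are uncertain where reads could be shared.

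Psph, the last enzyme, had 19.7, 21, 25.7, 22.8 and 20.5 CPM in the MΔGΔT libraries, 15.3, 13.8, 12.9, 14.5 and 14.1 in the MGT libraries and 14.8, 17.6, 18.3, 17.4 and 13.4 in the MEF libraries. All MΔGΔT libraries exceeded all others, and MGT and MEF overlapped. Psph rose by 0.43 ± 0.0857 in MΔGΔT against MEF and exceeded MGT by 0.63 ± 0.0852 (edgeR adjusted p = 3.7e-08), while in MGT against MEF it was -0.20 ± 0.0901 (edgeR adjusted p = 0.0495), a call lost with DESeq2 size factors, plain totals and RPKM-implied totals (adjusted p of 0.0599, 0.22 and 0.11). The MGT call was also lost without MEF replicate 2, 3 or 4, MGT replicate 2, 3, 4 or 5, or MΔGΔT replicate 2 (adjusted p of 0.0556 to 0.13), and with RPKM-implied totals the rise in MΔGΔT was 0.19 and not called. The exons of Psph share 452 bases (10.4%) with Cct6a on the opposite strand. Psat1, between the 2, rose by 0.35 ± 0.0367 in MΔGΔT, and its MGT value of -0.07 ± 0.0369 (edgeR adjusted p = 0.0858) did not pass, though it was called at -0.10 with upper-quartile factors and without MGT replicate 5 (adjusted p of 0.0212 and 0.0178). Psat1 was higher in MΔGΔT than in MGT by 0.43 ± 0.0365 (edgeR adjusted p = 4.7e-13).

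Mthfd2, a mitochondrial enzyme of the folate cycle, had 59.1, 60.0, 57.1, 55.7 and 61.8 CPM in the MΔGΔT libraries, 41.4, 44.0, 46.2, 42.7 and 46.2 in the MGT libraries and 61.8, 61.2, 63.5, 62.2 and 64.2 in the MEF libraries. MGT lay below both other groups, which overlapped each other. Mthfd2 fell by 0.51 ± 0.0478 in MGT, was -0.09 ± 0.0469 (edgeR adjusted p = 0.0801) in MΔGΔT without passing, and was higher in MΔGΔT than in MGT by 0.42 ± 0.0480 (edgeR adjusted p = 1.2e-09). The MΔGΔT value was called lower at -0.18, -0.19 and -0.33 with upper-quartile, plain and RPKM-implied scaling (edgeR adjusted p = 0.00111, 0.000517 and 3.4e-06), and at -0.11 without MΔGΔT replicate 5 (0.041). Shmt2, its partner in mitochondrial serine use, fell in both groups and further in MΔGΔT, by 0.45 ± 0.0488 against 0.16 ± 0.0471 in MGT, and the direct difference was -0.28 ± 0.0485 (edgeR adjusted p = 4.3e-06). With plain totals the MGT fall was -0.09 and not called (edgeR adjusted p = 0.1). Asns, which makes asparagine and whose promoter motif is shown above, rose by 0.25 ± 0.0510 in MΔGΔT, a call lost with RPKM-implied totals, and its value in MGT of -0.06 ± 0.0512 (edgeR adjusted p = 0.31) did not pass, turning to 0.02 with plain totals.

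The 7 amino acid transporters held the largest falls: 2 rose, 4 fell and 1 did not pass in MΔGΔT against MEF, and 1 rose and 6 fell in MGT. Slc7a11 (ENSMUSG00000027737.10, chr3:49892526-50443614), the cystine importer xCT, had 11.9, 10.2, 12.4, 9.10 and 13.6 CPM in the MΔGΔT libraries, 13.6, 13.4, 12.9, 14.9 and 16.0 in the MGT libraries and 54.7, 50.8, 46.4, 49.5 and 57.3 in the MEF libraries. The transduced groups overlapped each other, and every one of their libraries lay far below the lowest MEF library. Slc7a11 was 4.54-fold lower in MΔGΔT (log2 fold change -2.18 ± 0.0814, edgeR adjusted p = 8.0e-25) and 3.66-fold lower in MGT (log2 fold change -1.87 ± 0.0762, edgeR adjusted p = 2.6e-23), and MΔGΔT differed from MGT by -0.31 ± 0.0972 (edgeR adjusted p = 0.00628). Parts of 373 to 375 bases of its transcripts match tubulin genes and pseudogenes at 95% identity or more, so shared reads are possible there.

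Slc1a5 (ENSMUSG00000001918.17, chr7:16781340-16798274), the glutamine importer ASCT2, had 31.8, 29.5, 28.6, 24.8 and 30 CPM in the MΔGΔT libraries, 45.1, 43.7, 47.2, 46.8 and 53.2 in the MGT libraries and 139, 123, 125, 131 and 128 in the MEF libraries. The 3 groups were separate, in falling order MEF, MGT and MΔGΔT. It was 4.48-fold lower in MΔGΔT (log2 fold change -2.16 ± 0.0564, edgeR adjusted p = 4.3e-30) and 2.75-fold lower in MGT (log2 fold change -1.46 ± 0.0515, edgeR adjusted p = 2.7e-25), and 1.63-fold lower in MΔGΔT than in MGT (log2 fold change -0.71 ± 0.0614, edgeR adjusted p = 7.7e-13). Slc7a5 and Slc3a2, the light and heavy chains of the leucine exchanger LAT1, fell in both groups, by 0.30 ± 0.0416 and 0.46 ± 0.0391 in MΔGΔT and by 0.45 ± 0.0415 and 0.59 ± 0.0390 in MGT. Between the transduced groups both were called higher in MΔGΔT, by 0.15 ± 0.0420 and 0.12 ± 0.0394, with signs that turned to -0.02 and -0.05 under plain totals and to -0.10 and -0.13 under RPKM-implied totals. Neither call held with upper-quartile factors (0.09 and 0.06).

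Slc7a1 (ENSMUSG00000041313.14, chr5:148327410-148399904), the cationic amino acid importer CAT1, had 214, 209, 213, 209 and 206 CPM in the MΔGΔT libraries, 111, 112, 115, 113 and 115 in the MGT libraries and 136, 124, 134, 132 and 136 in the MEF libraries. The 3 groups were separate, with MΔGΔT the highest and MGT the lowest. Slc7a1 rose 1.59-fold in MΔGΔT (log2 fold change 0.67 ± 0.0361, edgeR adjusted p = 1.9e-19) and fell in MGT by 0.22 ± 0.0370 against MEF, and was 1.85-fold higher in MΔGΔT than in MGT (log2 fold change 0.89 ± 0.0361, edgeR adjusted p = 4.8e-23). Of the 4 members with opposite calls against MEF in the transduced groups, it was the one whose 2 calls held under all 5 scalings. Slc38a2, a sodium-coupled neutral amino acid importer, rose in both groups, by 0.66 ± 0.0380 in MΔGΔT and 0.48 ± 0.0380 in MGT, and the difference between them of 0.18 ± 0.0375 was 0.01 and not called under plain totals and turned to -0.08 under RPKM-implied totals. Slc1a4, a serine and alanine transporter, fell in MGT by 0.41 ± 0.0502 and in MΔGΔT had -0.07 ± 0.0497 (edgeR adjusted p = 0.2), which did not pass with TMM but was called at -0.16, -0.17 and -0.31 with upper-quartile, plain and RPKM-implied scaling.

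The 5 cytosolic tRNA synthetases among the members, which charge tRNAs with their amino acids, all fell in MGT, and in MΔGΔT 2 rose and 3 fell against MEF. Aars, for alanine, had 331, 325, 348, 315 and 331 CPM in the MΔGΔT libraries, 313, 313, 323, 308 and 339 in the MGT libraries and 426, 419.8, 422, 436 and 436 in the MEF libraries. Both transduced groups lay below MEF and overlapped each other. Aars fell by 0.37 ± 0.0343 in MΔGΔT and by 0.42 ± 0.0342 in MGT, and between them it was 0.05 ± 0.0343 (edgeR adjusted p = 0.24), turning to -0.01, -0.13 and -0.21 with upper-quartile factors, plain totals and RPKM-implied totals. Its annotated exons share 1326 bases (14.3%) with Exosc6 on the same strand, whose reads it may hold.

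Sars, for serine, had 207, 215, 228, 217 and 224 CPM in the MΔGΔT libraries, 215, 217, 215, 217 and 236 in the MGT libraries and 283, 281, 297, 286 and 277 in the MEF libraries. Here too MEF was separate and the transduced groups overlapped. The fall was -0.38 ± 0.0366 in MΔGΔT and -0.37 ± 0.0364 in MGT. Wars, for tryptophan, had 60.0, 64.3, 63.4, 59.0 and 63.4 CPM in the MΔGΔT libraries, 64.6, 64.7, 66.2, 66.0 and 73.4 in the MGT libraries and 98.7, 85.2, 93.5, 87.3 and 87.0 in the MEF libraries. The highest MΔGΔT library lay just under the lowest MGT library, and MEF lay above both groups. Wars fell by 0.54 ± 0.0480 in MΔGΔT and by 0.43 ± 0.0469 in MGT, and the difference of -0.11 ± 0.0487 (edgeR adjusted p = 0.0507) between them did not pass with TMM scaling. It was called lower in MΔGΔT under the other 4 scalings, at -0.12 with DESeq2 size factors, -0.17 with upper-quartile factors, -0.28 with plain totals and -0.37 with RPKM-implied totals (edgeR adjusted p = 0.0389, 0.003, 3.0e-06 and 9.8e-07). The same difference was called with no filter (adjusted p = 0.0481), in a fit of the 2 groups alone (0.0124) and without MEF replicate 1, MGT replicate 1 or 2 or MΔGΔT replicate 2 (0.0342 to 0.047). Gars, for glycine, and Nars, for asparagine, rose by 0.19 ± 0.0348 and 0.11 ± 0.0415 in MΔGΔT and fell by 0.13 ± 0.0348 and 0.12 ± 0.0416 in MGT. With RPKM-implied totals the MΔGΔT values turned to -0.05 and -0.13, the latter being called lower (edgeR adjusted p = 0.0453). With plain or RPKM-implied totals neither MGT call held. The rise of Nars in MΔGΔT was also lost with upper-quartile factors (0.03) and plain totals (0.01), without MEF replicate 2 (adjusted p = 0.0718) and without MΔGΔT replicate 3 (0.0504).

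Vldlr (ENSMUSG00000024924.14, chr19:27216484-27254231), the very low density lipoprotein receptor and a known ATF4 target in mouse cells, had 365, 373, 368, 368 and 350.1 CPM in the MΔGΔT libraries, 173, 167, 172, 186 and 177 in the MGT libraries and 107, 107, 111, 103 and 102 in the MEF libraries. The 3 groups were separate, with MΔGΔT the highest and MEF the lowest. Vldlr rose 3.44-fold in MΔGΔT (log2 fold change 1.78 ± 0.0378, edgeR adjusted p = 3.9e-33) and 1.65-fold in MGT (log2 fold change 0.72 ± 0.0381, edgeR adjusted p = 1.3e-19), and was 2.08-fold higher in MΔGΔT than in MGT (log2 fold change 1.06 ± 0.0361, edgeR adjusted p = 1.5e-25).

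The ER chaperones and folding enzymes had medians near 0. Of these 6 members, 3 rose, 1 fell and 2 did not pass in MΔGΔT against MEF, and 2 rose and 4 did not pass in MGT, with median log2 fold changes of 0.06 in MΔGΔT and -0.03 in MGT. Sdf2l1, a cofactor of the chaperone BiP, had 20.3, 21.1, 21.2, 21.3 and 23.1 CPM in the MΔGΔT libraries, 14, 14.9, 14.5, 13.4 and 18.5 in the MGT libraries and 14, 19.0, 17.8, 18.1 and 13.1 in the MEF libraries. All MΔGΔT libraries exceeded all others, and MGT and MEF overlapped widely. Sdf2l1 rose by 0.39 ± 0.0915 in MΔGΔT against MEF and exceeded MGT by 0.51 ± 0.0902 (edgeR adjusted p = 6.2e-06), while MGT against MEF gave -0.13 ± 0.0949 (edgeR adjusted p = 0.25), which did not pass. With RPKM-implied totals the rise against MEF was 0.15 and not called. In MEF its CV over libraries was 16.4%, the largest of any member in any group.

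Canx, the membrane chaperone calnexin, had 1055, 1097, 1096, 1052 and 1093 CPM in the MΔGΔT libraries, 891, 950.5, 928, 978 and 972 in the MGT libraries and 921, 861, 939, 870.2 and 884 in the MEF libraries. MΔGΔT stood above both other groups, which overlapped. Canx rose by 0.27 ± 0.0322 in MΔGΔT and by 0.08 ± 0.0322 in MGT, and exceeded MGT by 0.19 ± 0.0321, a call lost with plain totals (0.02) and a sign that turned to -0.06 with RPKM-implied totals. Its call in MGT was lost with upper-quartile factors (0.05, edgeR adjusted p = 0.17) and in a fit of the 2 groups alone (0.0934). It was also lost without MEF replicate 2, 4 or 5, MGT replicate 2, 4 or 5, or MΔGΔT replicate 1, 4 or 5 (adjusted p of 0.0521 to 0.17), and with RPKM-implied totals neither call against MEF held. Pdia6, a protein disulfide isomerase, had 294, 304, 321, 291 and 301 CPM in the MΔGΔT libraries, 295, 309, 304, 308 and 316 in the MGT libraries and 253, 279, 309.9, 288 and 286 in the MEF libraries. All 3 groups overlapped, and MEF replicate 1 was the lowest library. Pdia6 was called higher by 0.09 ± 0.0401 in MΔGΔT and by 0.11 ± 0.0400 in MGT. The MΔGΔT call was lost with upper-quartile factors (0.01), with plain totals (0.00) and in a fit of the 2 groups alone (adjusted p = 0.0601). Under RPKM-implied totals the MΔGΔT value turned to -0.14 and was called lower (edgeR adjusted p = 0.0203). The MGT call was lost with upper-quartile factors (0.0537) and without MEF replicate 1 or MGT replicate 5 (adjusted p of 0.053 to 0.066), and the MΔGΔT call without MEF replicate 1 or 2, MGT replicate 2 or 5, or MΔGΔT replicate 2, 3 or 5 (0.0501 to 0.16). Pdia4, another isomerase, fell by 0.11 ± 0.0362 in MΔGΔT, and in MGT was called only with upper-quartile factors (-0.10) and without MEF replicate 5, MGT replicate 2 or MΔGΔT replicate 5 (adjusted p of 0.022 to 0.048). Calr, the luminal chaperone calreticulin, was 0.03 ± 0.0323 (edgeR adjusted p = 0.38) in MΔGΔT and 0.01 ± 0.0323 (edgeR adjusted p = 0.89) in MGT, with overlap of all groups and a sign that turned to -0.05, -0.06 and -0.21 in MΔGΔT under upper-quartile, plain and RPKM-implied scaling, the last of which was called. In MGT Calr was called at 0.08 with plain totals (edgeR adjusted p = 0.0231). Creld2, an ER-resident folding factor, was 0.00 ± 0.0725 (edgeR adjusted p = 0.98) in MΔGΔT and -0.06 ± 0.0714 (edgeR adjusted p = 0.48) in MGT, the MΔGΔT value being called at -0.24 with RPKM-implied totals.

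All 3 members of ER-associated degradation fell in MGT, and in MΔGΔT 2 fell and 1 did not pass. Herpud1, a scaffold of the degradation complex whose promoter stretch holds motifs of 2 kinds, had 67.5, 73.2, 79.8, 70.8 and 75.0 CPM in the MΔGΔT libraries, 67.1, 65.6, 68.0, 68.1 and 69.7 in the MGT libraries and 87.3, 81.9, 83.3, 80.1 and 79.0 in the MEF libraries. MGT lay below every MEF library, and MΔGΔT overlapped both. Herpud1 fell by 0.17 ± 0.0452 in MΔGΔT and by 0.28 ± 0.0449 in MGT, and the difference between them of 0.11 ± 0.0454 was 0.06 and not called with upper-quartile factors and turned to -0.06 with plain and -0.14 with RPKM-implied totals. That difference was also not called without MGT replicate 1 or 2 or MΔGΔT replicate 3 or 5 (adjusted p of 0.0517 to 0.13). Edem1, a lectin that directs misfolded glycoproteins to degradation, had 214, 204, 204, 204 and 206 CPM in the MΔGΔT libraries, 147, 160.0, 144, 159 and 149 in the MGT libraries and 209, 225, 235, 219.7 and 234 in the MEF libraries. MGT stood below all other libraries, and MΔGΔT overlapped MEF only at the low end. Edem1 fell by 0.12 ± 0.0388 in MΔGΔT and by 0.56 ± 0.0391 in MGT, and was higher in MΔGΔT than in MGT by 0.44 ± 0.0392 (edgeR adjusted p = 1.4e-12).

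Sel1l, the adaptor of the ubiquitin ligase HRD1, had 343, 362, 359, 337 and 350.4 CPM in the MΔGΔT libraries, 295, 304, 293, 314 and 308 in the MGT libraries and 357, 333, 339, 336 and 332 in the MEF libraries. MGT lay below both other groups, which overlapped. Sel1l fell by 0.17 ± 0.0339 in MGT, and in MΔGΔT its value of 0.05 ± 0.0339 (edgeR adjusted p = 0.23) did not pass and turned to -0.04, -0.05 and -0.19 under upper-quartile, plain and RPKM-implied scaling, the last of which was called. MΔGΔT exceeded MGT by 0.21 ± 0.0339, which was 0.04 and not called with plain totals, turning to -0.05 with RPKM-implied totals.

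Per gene length, in the authors' RPKM, Calr was the highest, at 184 ± 9.13 RPKM in MΔGΔT, 215 ± 11.2 in MGT and 212 ± 17.8 in MEF (mean ± SD, n = 5 each), followed by Canx at 126 ± 7.02 RPKM in MΔGΔT, 132 ± 7.57 in MGT and 123 ± 6.98 in MEF. In MEF the next were Atf5 at 96.0 ± 7.27 and Atf4 at 89.1 ± 5.32 RPKM, which did not differ beyond their spread. In MΔGΔT the third place went to Slc38a2 at 73.2 ± 2.63 RPKM, above Atf4 at 63.5 ± 3.72, and Atf5 stood at 51.9 ± 3.12. Nupr1 held 35.1 ± 0.924 RPKM in MΔGΔT, 21.7 ± 1.99 in MGT and 8.37 ± 0.0838 in MEF, which put it above Psat1 in MΔGΔT (31.9 ± 1.66) and below it in MEF (29.5 ± 1.51). Psph and Slc7a11 were the lowest members in every group, with 0.588 ± 0.0912, 0.834 ± 0.0730 and 2.89 ± 0.150 RPKM for Slc7a11 in MΔGΔT, MGT and MEF. These values are not adjusted for composition, so they order genes within a group and are not used to compare groups. The spread between libraries was small, with a median CV of 4.08% over the members in MΔGΔT, 4.46% in MGT and 4.69% in MEF.

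**Figure D4:**
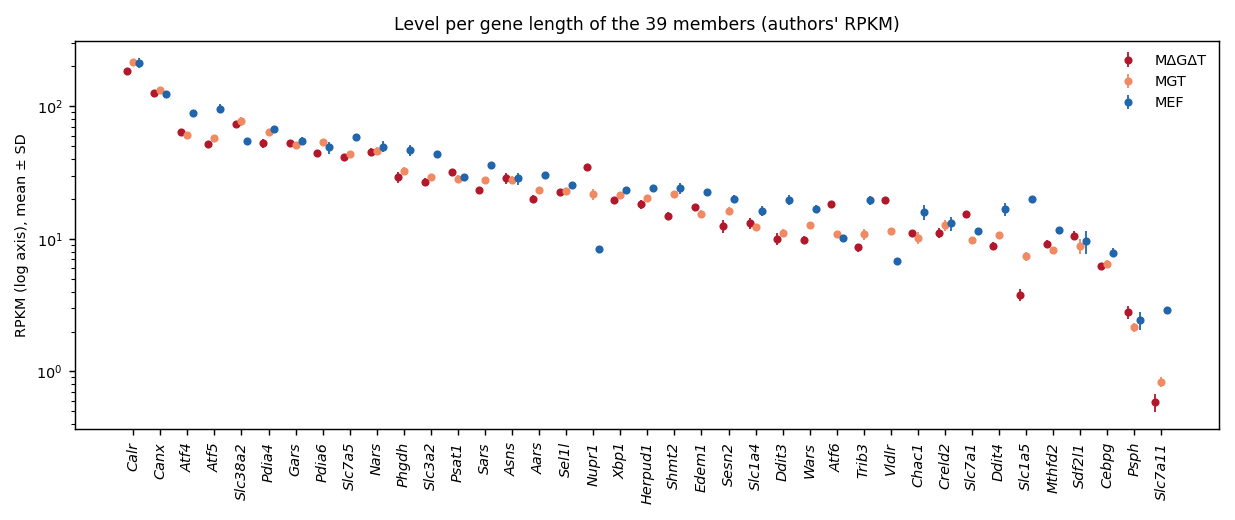
Level per gene length (RPKM, log axis) of the 39 members as mean ± SD over 5 libraries each of MΔGΔT, MGT and MEF, ordered by mean level. Calr and Canx lie at the top and Psph and Slc7a11 at the bottom in each group.

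A wider list of 81 further genes of the same pathways was examined, of which 79 could be tested (Fgf21 and Derl3 could not). In MΔGΔT against MEF, 32 were higher, 31 lower and 16 not called, and in MGT 20 were higher, 33 lower and 26 not called. Between the transduced groups 28 were higher in MΔGΔT, 13 lower and 38 not called. Beside these and the list counts that follow stand the shares over all tested genes, of 36.2% higher and 36.1% lower in MΔGΔT against MEF, 30.9% and 30.3% in MGT against MEF, and 30.4% and 27.8% in MΔGΔT against MGT. Among 20 tested further targets of ATF4 or CHOP, 5 were higher and 13 lower in MΔGΔT and 4 higher and 13 lower in MGT, with median log2 fold changes of -0.35 and -0.33. In MΔGΔT against MGT, 2 of these targets were higher, 7 lower and 11 not called, with a median of -0.06. In each of the other further lists more genes were higher than lower in that comparison. All counts of the further lists use TMM scaling and were not determined under the other scalings. Over all tested genes, the split of MΔGΔT against MGT ran from 4056 higher and 3706 lower with TMM to 1871 and 7289 with RPKM-implied totals. Gadd45a, a growth arrest gene induced by DNA damage and by ATF4, averaged 12.2 ± 1.38 CPM in MΔGΔT, 12.8 ± 1.48 in MGT and 28.6 ± 1.40 in MEF, and fell by 1.23 ± 0.0820 in MΔGΔT and by 1.17 ± 0.0792 in MGT on the log2 scale (edgeR adjusted p = 1.3e-16 and 3.4e-16). Cth, which makes cysteine from cystathionine, rose by 1.24 ± 0.101 in MΔGΔT against MEF (adjusted p = 4.9e-14), at 17.9 ± 1.43 CPM in MΔGΔT and 7.50 ± 1.29 CPM in MEF. Stc2, a secreted glycoprotein induced by stress, rose by 1.45 ± 0.0639 in MGT, at 45.4 ± 1.91 CPM in MGT and 16.7 ± 1.08 CPM in MEF (adjusted p = 4.1e-22), and was lower in MΔGΔT than in MGT by 1.24 ± 0.0620 on the log2 scale, at 19.2 ± 1.36 CPM (adjusted p = 3.9e-20).

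Of 19 further ER chaperones and folding enzymes, 9 were higher and 6 lower in MΔGΔT and 6 higher and 4 lower in MGT. The largest rise was that of Ero1l, the oxidase that recharges protein disulfide isomerases, at 469 ± 10.6 CPM in MΔGΔT, 159.6 ± 3.95 in MGT and 134 ± 10.7 in MEF, with log2 fold changes in MΔGΔT of 1.81 ± 0.0411 against MEF and 1.56 ± 0.0403 against MGT (edgeR adjusted p = 4.0e-32 and 1.5e-29). Pdia5, an isomerase, fell to 45 ± 1.37 CPM in MΔGΔT and 43.6 ± 2.47 in MGT, against 82.2 ± 7.04 in MEF. Among 8 tested genes of the eIF2 kinases and their partners, 4 were higher and 3 lower in MΔGΔT and 4 higher and 2 lower in MGT. Eif2ak1, the heme-regulated kinase, averaged 68.7 ± 2.10 CPM in MΔGΔT, 62.7 ± 2.65 in MGT and 44.2 ± 1.59 in MEF, with log2 rises of 0.64 ± 0.0478 and 0.50 ± 0.0475 in the transduced groups. Among 8 genes of the IRE1 and ATF6 machinery, 4 were higher and 3 lower in MΔGΔT and 2 higher and 4 lower in MGT, and Creb3l2, a membrane-bound factor related to ATF6, rose to 442 ± 6.26 and 358 ± 11.7 CPM in MΔGΔT and MGT against 195 ± 8.64 in MEF. Of 15 further cytosolic tRNA synthetases, 7 were higher and 3 lower in MΔGΔT and 3 higher and 6 lower in MGT. Their median log2 fold changes were 0.08 and -0.01. Of 9 tested further genes of ER-associated degradation, 3 were higher and 3 lower in MΔGΔT and 1 higher and 4 lower in MGT. Here the medians were 0.03 and -0.15.

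**Figure D5:**
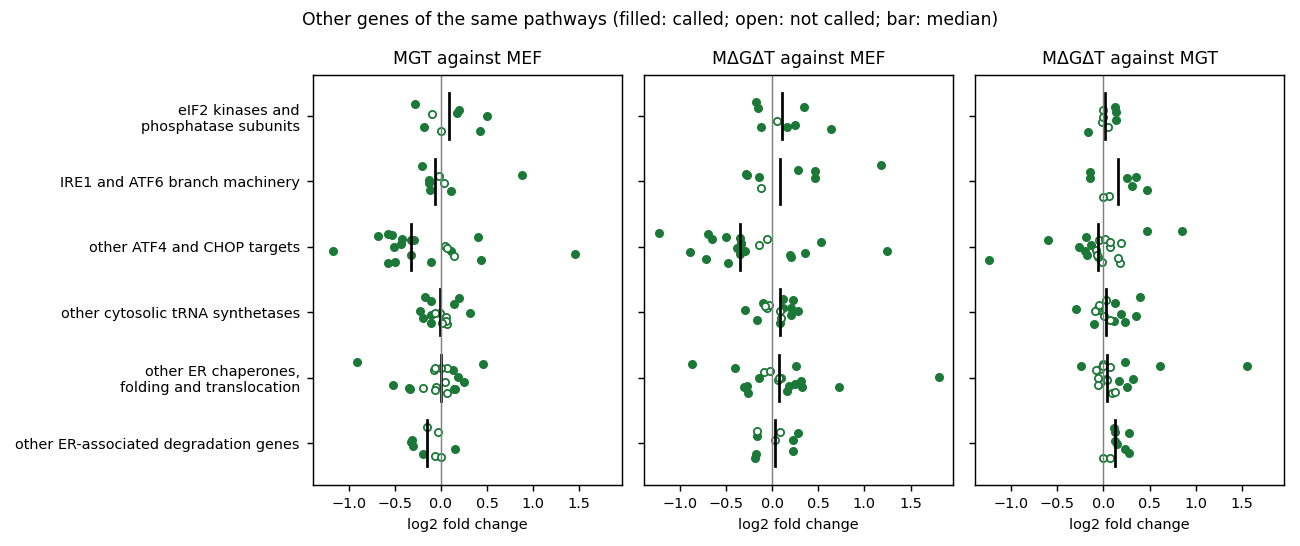
Log2 fold change (x axis) of each tested gene in the 6 further lists (y axis) in 3 comparisons, with filled points for called genes, open points for genes not called and a black bar at the list's median. All values are from edgeR with TMM scaling. The other ATF4 and CHOP targets have medians of -0.35 in MΔGΔT and -0.33 in MGT against MEF, and the point farthest right among the ER chaperones in both MΔGΔT panels is Ero1l.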

How the data were processed

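RNA-seq of 15 mouse fibroblast libraries was used, 5 each labelled MΔGΔT, MGT and MEF. Directional libraries were made from rRNA-depleted total RNA, per the labels' protocols. The deposited table gives whole-number counts per gene symbol, per the file headers, and the authors' RPKM, which also divides by gene length. Per the submitters' processing notes the genome build was mm10. No aligner, counter or strand setting is given in these sources, so reads of overlapping genes cannot be told apart with certainty. Dates in place of symbols stood for 21 features (0.258% of counts), which stayed in library sizes.

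Counts were analysed in edgeR 4.0.16 (R 4.3.3): filterByExpr by group left 13328 genes, libraries were scaled by TMM, and a robust quasi-likelihood model with group as the only term was fitted to all 15 libraries (12 residual degrees of freedom, biological coefficient of variation 4.86%). F-test p-values were adjusted by Benjamini-Hochberg over all tested genes of a comparison, and genes under 0.05 are called. Each SE was derived from the F statistic. The code was tested on simulated data. Depth was 8.21 to 11.1 mega-counts per library.

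The members, the gene lists and the tests were chosen with earlier results of these data known. Values in every library are given for Atf4, Ddit3, Xbp1, Atf6 and up to 3 members per role with the largest change in any comparison, and for the further lists up to 2 called genes per list and comparison, of which the text gives a selection; other members have fold changes. Alternatives were other scalings (DESeq2 size factors, upper quartile, plain totals, RPKM-implied totals), the DESeq2 1.42.0 Wald test, no filter, fits of 2 groups, a replicate block and leaving out each library. Promoter motifs were searched in RefSeq windows (GRCm38.p6), a selection of the matched stretches being shown, and gene positions and overlaps are from GENCODE M21.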

Additional observations from a re-analysis of the deposited data

Results flagged for a closer look

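In 6 of 117 member groups of 5 libraries, 1 library lay apart from the other 4 by more than Dixon's 95% limit of 0.71 for the gap over the range, and chance alone flags about 1 in 20 groups. Xbp1 stood at 122 CPM in MΔGΔT replicate 3, where the other MΔGΔT libraries had 115 to 116, and Atf6 at 235 CPM in MΔGΔT replicate 5, where the others had 245 to 247. Edem1 stood at 214 CPM in MΔGΔT replicate 1, beside 204 to 206 in the others. Sars at 236 CPM and Wars at 73.4 CPM were both highest in MGT replicate 5, beside 215 to 217 and 64.6 to 66.2 CPM in the other MGT libraries. Sel1l stood at 357 CPM in MEF replicate 1, beside 332 to 339 in the others.

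Against MEF, 4 members were called in opposite directions in the transduced groups, and the direct test found MΔGΔT above MGT by 0.63 for Psph, 0.89 for Slc7a1, 0.31 for Gars and 0.23 for Nars on the log2 scale (edgeR adjusted p = 3.7e-08, 4.8e-23, 5.1e-10 and 7.0e-06). A passed direct test was part of the rule for this flag, so these p-values are no separate evidence. Only Slc7a1 kept both calls against MEF under all 5 scalings. With TMM scaling, in each of the 5 MΔGΔT libraries all 4 exceeded all MGT libraries. That separation is in the same libraries the rule used, so it is no separate evidence either. The share of all tested genes so separated was not determined. With RPKM-implied totals the differences of Gars (0.05) and Nars (-0.02) were no longer called, and that of Nars was also lost with plain totals (0.06, adjusted p = 0.2).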

How the results depend on the processing

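In the following, values are members called or median log2 fold changes, and the cause of each shift was not tested unless the scaling itself gives it. In MGT against MEF, 3 members were higher with upper-quartile factors, and the median was -0.31 with upper-quartile factors, -0.21 with plain totals and -0.26 with RPKM-implied totals. In MΔGΔT against MEF, the median was -0.19, -0.20 and -0.34 under the same scalings, and RPKM-implied totals left 6 members and 2926 genes higher. In MΔGΔT against MGT, upper-quartile factors gave 7 members lower, 3402 genes higher and 4474 lower, and a median of 0.09. Plain totals gave 14 members higher and 12 lower, 2436 genes higher and 6200 lower, and a median of -0.02. RPKM-implied totals gave 9 members higher and 17 lower, 1871 genes higher and 7289 lower, and a median of -0.10.

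Leaving out 1 library at a time gave 3 to 6 members higher and 26 to 28 lower in MGT against MEF (median -0.30 to -0.26; all genes 3863 to 4134 higher and 3912 to 4141 lower). It gave 11 to 13 higher and 19 to 20 lower in MΔGΔT against MEF (median -0.12 to -0.09), and 23 to 25 higher and 3 to 5 lower in MΔGΔT against MGT (median 0.14 to 0.17).

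Signs of single members turned as follows. In MGT against MEF, Asns and Creld2 were 0.02 with plain totals, and Calr was -0.02 with upper-quartile factors and down to -0.01 without single libraries. In MΔGΔT against MEF, Calr and Sel1l were -0.05 and -0.04 with upper-quartile factors and -0.06 and -0.05 with plain totals. RPKM-implied totals gave Gars -0.05, Nars -0.13, Pdia6 -0.14, Calr -0.21 and Sel1l -0.19, and Xbp1 was 0.02 without MEF replicate 1. In MΔGΔT against MGT, Aars and Calr were -0.01 and -0.03 with upper-quartile factors. Plain totals gave Atf5 -0.06, Ddit3 -0.07, Xbp1 -0.03, Phgdh -0.06, Slc7a5 -0.02, Slc3a2 -0.05, Aars -0.13, Creld2 -0.11, Calr -0.15 and Herpud1 -0.06. RPKM-implied totals gave Atf5 -0.14, Ddit3 -0.16, Cebpg -0.06, Xbp1 -0.12, Phgdh -0.14, Slc7a5 -0.10, Slc3a2 -0.13, Slc38a2 -0.08, Aars -0.21, Nars -0.02, Creld2 -0.20, Calr -0.23, Canx -0.06, Herpud1 -0.14 and Sel1l -0.05. Sars was 0.01 without MΔGΔT replicate 1 and 0.02 without MGT replicate 5.

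The groups share replicate numbers, but same-numbered libraries did not deviate together (r of -0.0918 to 0.0668 over 15 pairs, beside -0.12 to 0.112 over 60 pairs of other numbers), so the number was not taken as a pairing. With the number as a replicate block, members were 4 higher and 27 lower in MGT against MEF, 13 and 19 in MΔGΔT against MEF, and 25 and 3 in MΔGΔT against MGT. The block ended the calls of Canx in MGT against MEF (adjusted p = 0.0585) and of Sesn2 in MΔGΔT against MGT (0.0528), and added that of Phgdh in MΔGΔT against MGT (0.0493). With the DESeq2 Wald test they were 6 and 26, 13 and 19, and 24 and 4. Depth gave at least 90 counts per member and library, and differences that did not pass the test were not detectable with these libraries, which does not show them to be absent.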
